A study of Equus caballus with 25 samples.

Results

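The lymphocyte share of bronchoalveolar lavage (BAL) cells was compared within mild-moderate equine asthma (MEA). All 10 MEA-affected horses, of 25 horses in the whole series, were divided by the percentage of lymphocytes in their differential cell count: 6 horses with at least 3% formed the higher class and 4 horses with less than 3% the lower class. The horse just inside the limit had 3.2% lymphocytes and the horse just outside it 2.9%, and the percentages ran from 1.9% to 5%. Each percentage rested on a limited number of cells counted on stained smears, so that a few percent stood for few lymphocytes. The counting error was not estimated here. It bears on the class of every horse, most of all near the limit, and on the slopes. RNA from BAL cells was hybridized to 1 custom one-color array per horse. The arrays covered equine transcripts chosen for immune and mucosal genes. The other horses were 7 clinically healthy controls (CTRL) and 8 horses with severe equine asthma (SEA), and their levels are given here only for reference. No treatment of the disease is named for any group. The horses were sedated with xylazine for endoscopy, and the lavage was done with saline and lidocaine. All MEA-affected horses had neutrophilic airway inflammation without mast cell or eosinophilic inflammation. The smears showed a few eosinophils in some horses of the higher class and in none of the lower class. The MEA-affected horses were sampled when they were presented at the clinic. Their age was close to that of the CTRL horses and below that of the SEA-affected horses. They were of mixed type, standardbred and saddle horses, whereas the CTRL horses were standardbreds. The higher class held 4 males and 2 females and the lower class 1 male and 3 females, so that sex and lymphocyte class were partly joined.

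Lymphocytes and alveolar macrophages make up most of the cells that a lavage recovers from a healthy equine lung, and neutrophils come in with inflammation. In this series the cells of the CTRL horses were nearly all macrophages. Every CTRL horse had a smaller share of lymphocytes than any MEA-affected horse. T cells read antigen through the T cell receptor and its CD3 chains, natural killer (NK) cells and cytotoxic T cells kill with granzymes, and B cells and plasma cells make immunoglobulin. Chemokines such as CXCL11 draw activated T cells through the receptor CXCR3. A lavage also carries ciliated cells shed from the airway wall, whose axoneme genes are hardly transcribed in leukocytes. In RNA from a mixed pellet, fewer cells of a type and less RNA per cell cannot be told apart.

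Each transcript was read by a single probe of 60 bases. The probes of 5 transcripts are given because the clearest differences described below rest on them: 4 were lower in the higher class, and ADAMDEC1 was higher. No part of them is set in capitals.
ENSECAT00000015657: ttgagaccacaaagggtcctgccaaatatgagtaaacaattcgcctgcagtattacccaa
NPY: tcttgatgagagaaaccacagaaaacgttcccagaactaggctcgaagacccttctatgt
CXCL11: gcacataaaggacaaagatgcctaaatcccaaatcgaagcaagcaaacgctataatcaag
TREM2: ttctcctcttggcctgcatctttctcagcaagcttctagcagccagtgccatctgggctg
ADAMDEC1: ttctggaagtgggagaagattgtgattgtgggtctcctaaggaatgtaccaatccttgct

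The share of spots well above background ran from 70.5% to 79.8% in the higher class, with a median of 74.0%, and from 58.2% to 84.1% in the lower class, with a median of 74.4%. After normalization 4930 of 7238 transcripts were tested, with 4571 distinct probe sequences, and 1683 of them had a gene symbol. The median SD between horses was 0.61 in the higher and 0.46 in the lower class on the log2 scale, against a median difference of 0.20 between the 2 spots of a probe. The arrays lay on 4 slides. Slides 1, 2 and 4 held both classes, and slide 3 held 1 horse of the higher class. Slides 1 and 2 held 1 horse of each class, and slide 4 held 3 of the higher and 2 of the lower class. MEA horse 3, of the higher class, stood apart from the others on the first principal component, and list medians and differences that moved most with it are given with and without it. Of the 74 named transcripts, 49 had a difference that turned or moved by over 1.5 times when 1 horse or another was left out. All values are log2 intensities, and a difference is the mean of the higher class minus the mean of the lower class, with its standard error (SE).

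No transcript was called different between the classes by limma at an adjusted p below 0.1 and a fold of at least 1.5 (0 of 4930, or 0%), and the smallest adjusted p was 0.177. At an unadjusted limma p below 0.05, 92 transcripts (1.87%) were higher in the higher class and 62 (1.26%) were lower. An exact rank sum test had 58 higher and 68 lower at an unadjusted p below 0.05, but its smallest possible p with 6 against 4 horses is 0.00952, too large for any transcript to be called. The values of the classes did not overlap for 6 transcripts that were higher (0.122%) and 21 that were lower (0.426%). The median difference over all tested transcripts was 0.01, and the middle of the distribution, from the first to the third quartile, ran from -0.24 to 0.28. The median 95% interval of a difference extended 0.81 to either side. In simulated data of this design, with 4930 transcripts of which 200 were changed, limma called 28% of the differences of 1, 80% of those of 2 and 98% of those of 3 on the log2 scale. It also called 20 unchanged transcripts. The simulated transcripts were drawn independently from normal distributions, without outlying horses, and 50 were changed at each size from 1 to 4. These shares may therefore not hold for the real arrays. The result turned on settings for a pair of transcripts. With array weights 2 transcripts were called, NPY and ENSECAT00000015657, and without MEA horse 8 only ENSECAT00000015657 was called.

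Transcripts that were lower with more lymphocytes had the smallest p values, and the first with a symbol were a neuropeptide, a T cell chemokine and a macrophage receptor. ENSECAT00000015657, which has no symbol in the tables used and was singled out after its values were seen, had the smallest p of all. It lay between 3.58 and 4.89 in the 6 horses of the higher class, with a median of 4.37, and at 6.85, 7.79, 5.68 and 7.09 in MEA horses 2, 5, 8 and 9. The classes did not overlap. The difference was -2.54 ± 0.40 (SE), with a 95% interval from -3.41 to -1.66 and an adjusted limma p of 0.177. The median of the higher class was under 4.5, the level used to drop dim transcripts. The probe was well above background in 6 of 6 horses of the higher and 4 of 4 of the lower class. With the normexp background correction the difference was -1.09. On the slides that held both classes the difference was -2.31, -3.74 and -1.81. Its sign there was fixed in advance, because the classes did not overlap.

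NPY, a neuropeptide of sympathetic nerves that leukocytes can also make, followed the same pattern. Its level was between 4.16 and 5.23 in the higher class, with a median of 4.46, and 6.37, 6.65, 5.76 and 6.53 in the horses of the lower class. The lowest horse of the lower class stood above the highest of the higher class. The difference was -1.78 ± 0.30 (SE), with a 95% interval from -2.43 to -1.12 and an adjusted limma p of 0.177, and it ran from -1.96 to -1.67 when single horses were left out. The median of the higher class was again under 4.5, and with the normexp background correction the difference was -0.64. CTRL horses averaged 5.92 ± 1.26 (SD, n = 7) for NPY, between the classes.

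CXCL11, the interferon-induced ligand of CXCR3, was lower in the class with more lymphocytes. The higher class lay close together, between 6.22 and 7.16 with a median of 6.798, and the lower class was spread over 9.42, 8.45, 10.46 and 7.61. No horse of one class reached the other. The difference of CXCL11 was -2.23 ± 0.47 (SE), with an adjusted limma p of 0.742. On the 3 slides that held both classes it was -2.67, -1.91 and -2.29, with a sign fixed by the lack of overlap. It was -1.74 without MEA horse 8. The CTRL mean was 7.45 ± 1.19 (SD, n = 7) and the SEA mean 6.28 ± 1.18 (SD, n = 8). No other transcript of the list of interferon response genes reached an unadjusted p below 0.05 (1 of 16). The median difference of that list was -0.10, with 6 of 16 above 0, and -0.40 with 2 of 16 above 0 without MEA horse 3.

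TREM2, a lipid-sensing receptor of macrophages, lay between 6.84 and 8.14 in the higher class with a median of 7.91, and at 8.76, 8.77, 9.35 and 9.22 in the lower class. The classes were separate for TREM2. Its difference was -1.32 ± 0.31 (SE), with an adjusted limma p of 0.995. MPEG1, which encodes a perforin-like protein of macrophages, had a difference of -1.80 ± 0.67 (SE) and an unadjusted limma p of 0.0204, and its classes overlapped because MEA horse 6, of the higher class, had 7.54 while the lower class ran from 6.08 to 7.72. On slides 1, 2 and 4 the differences were -0.67, -0.92 and -1.89 for TREM2 and -2.02, -1.65 and -2.58 for MPEG1. For TREM2 the sign on each slide was fixed, because its classes did not overlap. With single horses left out the differences lay within -1.40 to -1.14 for TREM2 and -2.25 to -1.39 for MPEG1.

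The other named transcripts on this side were CLIC4, SERPING1, STX1A and FN1. CLIC4, a chloride channel protein of the cell interior, was the only one of these 4 whose classes did not overlap, with 4.06 to 5.70 in the higher and 5.72 to 6.85 in the lower class and a difference of -1.28 ± 0.39 (SE). SERPING1, the inhibitor of complement C1, differed by -1.10 ± 0.43 (SE), STX1A, a protein of vesicle fusion, by -0.89 ± 0.35 (SE), and FN1, fibronectin, by -1.19 ± 0.48 (SE). Adjusted p values of these 4 were 0.995. BPIFB2, of the BPI fold family of secreted proteins, was the fifth transcript with a symbol among the 21 that did not overlap on this side, and it is named after its values were seen. Its classes all but touched, at 5.22 on both sides. Its difference of -0.45 ± 0.26 (SE) did not pass an unadjusted p of 0.05 (limma, p = 0.117), and in the class with more lymphocytes MEA horse 7 lay far below the rest.

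**Figure D1:**
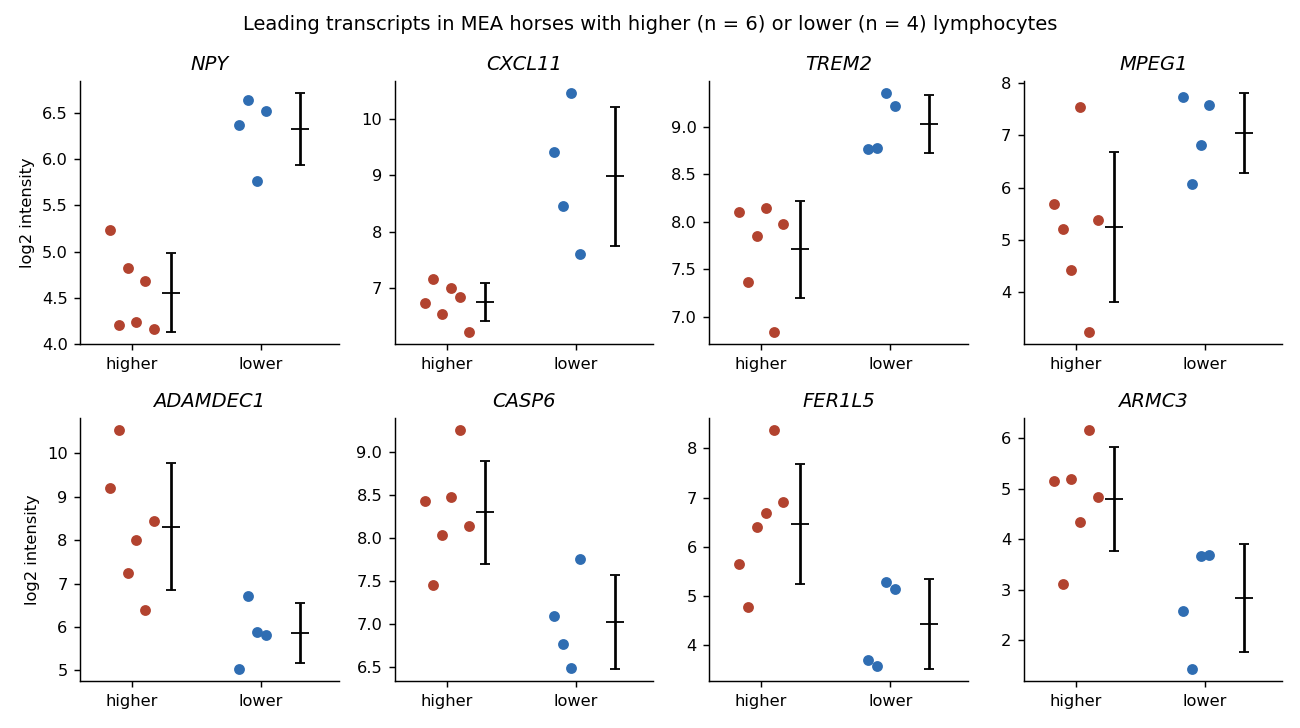
Log2 intensity (y axis) of 8 leading transcripts in MEA-affected horses with higher (red, n = 6) and lower (blue, n = 4) lymphocytes; each point is 1 horse, and bars are the mean ± SD. The classes are separate for NPY, CXCL11 and TREM2, and overlap for MPEG1, ADAMDEC1, CASP6, FER1L5 and ARMC3. The y axes do not start at 0.

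On the other side, the 8 named transcripts with the smallest p were ADAMDEC1, C20orf26 (by 2 transcripts), CASP6, ARMC3, FER1L5, TIGD4 and CLDN8, with unadjusted limma p values from 0.00358 to 0.0102 and adjusted p values of 0.995. ADAMDEC1, a secreted metalloprotease of macrophages and dendritic cells, had the largest difference of these. It lay between 6.402 and 10.55 in the higher class, with a median of 8.23, and at 5.03, 6.72, 5.89 and 5.82 in the lower class. Only MEA horse 7 of the higher class fell within the range of the lower class. The ADAMDEC1 probe was well above background in 3 of 4 horses of the lower class. The difference was 2.45 ± 0.68 (SE), from 1.998 to 2.83 when single horses were left out. It was 4.17 on slide 1, 0.54 on slide 2 and 2.62 on slide 4. CTRL horses had 6.405 ± 1.52 (SD, n = 7) and SEA-affected horses 8.61 ± 1.97 (SD, n = 8).

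C20orf26, a gene of motile cilia now known as CFAP61, was higher in the class with more lymphocytes by 1.72 ± 0.49 (SE) for ENSECAT00000028948 and by 1.73 ± 0.57 (SE) for ENSECAT00000004226. For the first the classes did not overlap, with 4.62 to 6.67 against 2.27, 4.08, 4.47 and 4.53. Its probe was well above background in 3 of 4 horses of the lower class, and with the normexp background correction its difference was 0.50. These 2 transcripts share a gene and are not independent. ARMC3, an armadillo repeat protein of cilia and sperm, differed by 1.96 ± 0.59 (SE), but its probe was well above background in 2 of 4 horses of the lower class. CASP6, an executioner caspase, differed by 1.27 ± 0.37 (SE), with 7.45 to 9.26 in the higher class and 7.09, 6.77, 6.49 and 7.76 in the lower class. CASP6 differed by 1.34, 1.27 and 1.16 on slides 1, 2 and 4. FER1L5, of the ferlin family of membrane proteins, differed by 2.05 ± 0.62 (SE), TIGD4, derived from a transposase, by 1.44 ± 0.46 (SE), and CLDN8, a claudin of epithelial tight junctions, by 1.22 ± 0.40 (SE). The FER1L5 probe was well above background in 3 of 4 horses of the lower class. The CTRL means of both C20orf26 transcripts, ARMC3, CASP6 and CLDN8 stood above the means of both MEA classes, at 6.68, 8.75, 5.94, 9.10 and 6.96. PKP4, a plakophilin of cell junctions, and NEO1, a receptor of guidance cues, completed the 3 transcripts with a symbol that were higher without overlap, and are named after their values were seen. They differed by 1.01 ± 0.35 (SE) and 0.86 ± 0.32 (SE).

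No transcript of the lymphocyte lists separated the classes. Of 50 tested transcripts in 4 lists, those of T cells, of helper and regulatory subsets, of NK and cytotoxic cells and of B and plasma cells, 0 were called by limma and 0 had an unadjusted p below 0.05 in either direction, against 1.87% and 1.26% of all transcripts and 4.4% and 0.891% of those with a symbol, the only ones that a list can hold. The symbols of CD3D, CD3E, CD3G, CD4, CD8A, CD79A and MS4A1, which define T and B cells, are not among those known for these probes, and their levels were not analysed here.

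In the T cell list, 16 transcripts of 14 genes were tested, 9 above and 7 below 0, with a median difference of 0.08 against 0.01 for all transcripts. CD247, the zeta chain of the T cell receptor complex and chosen for that role after its values were seen, had 4.79 ± 1.19 (SD, n = 6) in the higher and 4.67 ± 0.75 (SD, n = 4) in the lower class. Its difference was 0.12 ± 0.59 (SE), with a 95% interval from -1.16 to 1.40. CD27, a costimulatory receptor also chosen for its role after its values were seen, differed by 0.19 ± 0.76 (SE). The difference turned to -0.42 without MEA horse 3, whose level of 8.47 stood above the 4.49 to 5.06 of the rest of its class. The smallest p of the list belonged to THY1, a surface protein of T cells in some species and of fibroblasts. It differed by 1.85 ± 1.13 (SE) with an unadjusted limma p of 0.130, and by 0.44 without MEA horse 8, which had 2.58. RHOH, a GTPase of T cell receptor signalling, differed by 1.12 ± 1.201 (SE) and by 0.16 without MEA horse 3. TRAT1, an adaptor of the receptor complex, had a difference of -0.70 ± 0.54 (SE) and SLAMF1, a costimulatory receptor, of -0.55 ± 0.48 (SE). The median of the T cell list was below 0 without MEA horse 1, 2, 3 or 8, at -0.01, -0.04, -0.24 and -0.15, and 0.29, 0.25 and 0.23 without MEA horse 5, 7 or 10.

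Among the 7 tested genes of helper and regulatory subsets, 3 differences were above 0 and 4 below, with a median of -0.04, or -0.29 without MEA horse 4 and -0.43 without MEA horse 8. BCL6, the master regulator of follicular helper cells that myeloid cells also transcribe, differed by 0.92 ± 0.57 (SE) and by 0.51 without MEA horse 3. FOXP3, the master regulator of regulatory T cells, had 4.66 ± 0.68 (SD, n = 6) in the higher and 5.09 ± 0.23 (SD, n = 4) in the lower class, a difference of -0.43 ± 0.36 (SE) with an interval from -1.204 to 0.35. IL2RA, the alpha chain of the interleukin-2 receptor, differed by -0.51 ± 0.42 (SE) and ZBTB16, a factor of innate-like T cells, by 0.40 ± 0.93 (SE).

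The list of NK and cytotoxic cells held 11 tested transcripts, 9 of them above 0, against 51.3% of all transcripts, with a median difference of 0.19. It was 0.04 without MEA horse 3 and -0.01 without MEA horse 8. GZMB, a granzyme of cytotoxic granules, had 4 tested transcripts. It differed by 0.59 ± 0.63 (SE) for ENSECAT00000009819, whose probe was well above background in 2 of 4 horses of the lower class. The single one of the 4 below 0, ENSECAT00000021962, had 11.19 ± 0.65 (SD, n = 6) in the higher and 11.27 ± 0.49 (SD, n = 4) in the lower class, a difference of -0.08 ± 0.37 (SE) with an interval from -0.89 to 0.73. KLRG1, an inhibitory receptor of mature NK and T cells and chosen for that role after its values were seen, differed by 0.08 ± 0.44 (SE), with a probe that was well above background in 2 of 4 horses of the lower class. IL18R1, a chain of the interleukin-18 receptor, differed by 0.85 ± 0.86 (SE), with 0.26 left without MEA horse 3, and MATK, a kinase of blood cells, by -0.15 ± 0.56 (SE).

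The list of B and plasma cells held 16 tested transcripts, 8 above and 8 below 0, with a median of 0.04. KLHL6, of B cell receptor signalling, differed by 0.72 ± 0.57 (SE) and the light chain segment IGLV3-27 by 0.48 ± 0.70 (SE). Both of these probes were well above background in 5 of 6 horses of the higher and 2 of 4 of the lower class. BTK, a kinase of B cells and of myeloid cells, differed by -0.67 ± 0.73 (SE), and the immunoglobulin heavy chain transcript IGHG4 (ENSECAT00000009745) by -0.57 ± 0.99 (SE). The immunoglobulin transcripts are close copies of each other, so that their probes may share targets. On slide 1 the median of the list was 1.66, on slide 2 -0.61 and on slide 4 0.49. The median was -0.65 without MEA horse 8, between -0.23 and -0.02 without MEA horse 1, 2, 3 or 7, and 0.27 without MEA horse 5.

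The 6 tested chemokines that attract T cells had a median difference of -0.14, with CXCL11 the single one at an unadjusted p below 0.05. The median was -0.44 without MEA horse 3 and 0.12 without MEA horse 10. CCL17, a ligand of CCR4, differed by 0.81 ± 1.17 (SE) and turned to -0.08 without MEA horse 2, and CCL20, the ligand of CCR6, differed by -0.33 ± 0.45 (SE). Of 5 tested chemokine receptors of lymphocytes none had an unadjusted p below 0.05. CXCR6, of resident T cells, differed by 0.45 ± 0.59 (SE) and CCR7, of naive T cells and mature dendritic cells, by -0.997 ± 0.62 (SE). The median of these receptors was 0.07, and ran from -0.38 without MEA horse 8, when 1 of them was lower at an unadjusted p below 0.05, to 0.61 without MEA horse 5. Of the 3 receptors of the common gamma chain family that were tested, IL4R differed by 0.47 ± 0.33 (SE) and the common chain IL2RG by 0.31 ± 0.36 (SE). The third, IL2RA, differed by -0.51 ± 0.42 (SE).

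**Figure D2:**
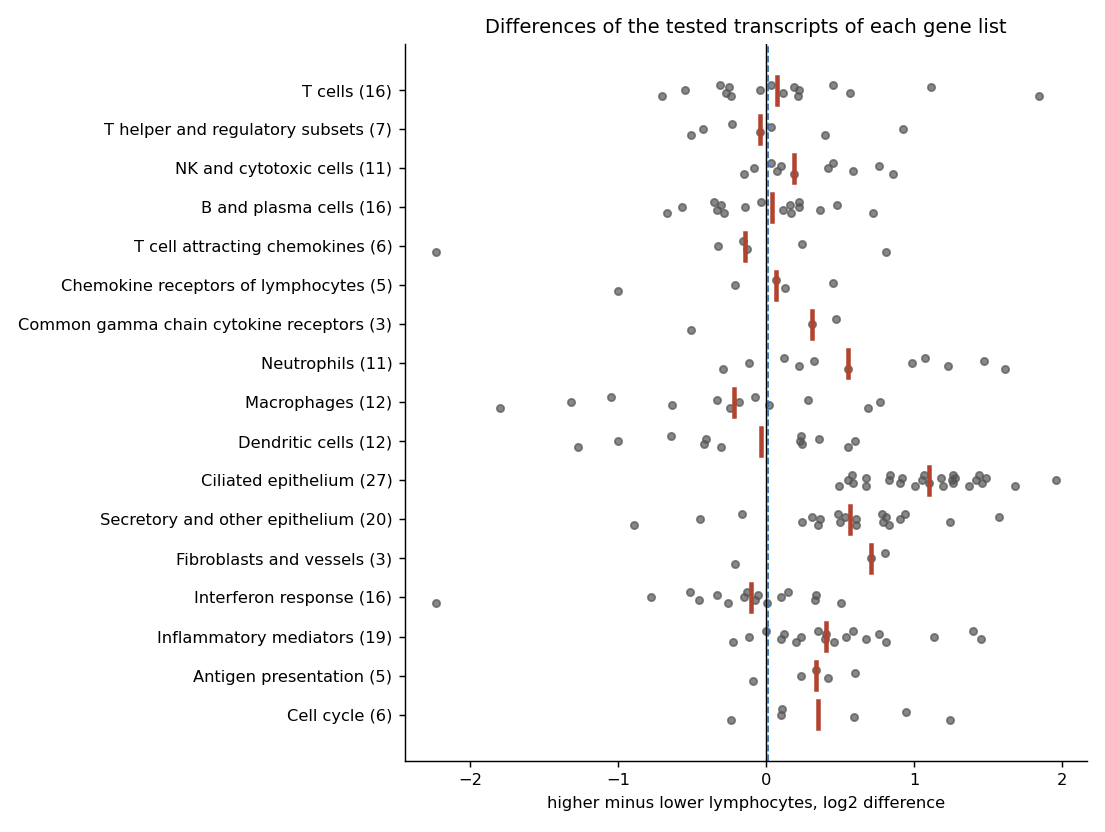
Difference between the higher and the lower class (x axis, log2) for each tested transcript (grey points) of each list with at least 3 tested transcripts, whose number stands in brackets; red bars are list medians and the dashed blue line is the median of all 4930 transcripts, 0.01. The lymphocyte lists scatter around 0, and the 27 ciliated cell transcripts all lie above it, with a median of 1.10.

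The transcripts of ciliated epithelium lay higher in the class with more lymphocytes, all 27 of 27 tested, against 51.3% of all transcripts with a difference above 0. A list can hold only transcripts with a symbol, and their share above 0 was not computed. Symbols were known only for transcripts that the study listed as changed in asthma, partly from these same horses. At an unadjusted limma p below 0.05 these leaned to the higher side, with 4.4% higher and 0.891% lower. So 51.3% may be too low as a background for this and the other lists. The median difference was 1.10, against 0.01 for all transcripts, and single differences ran from 0.49 to 1.96. None was called, and 9 of 27 had an unadjusted limma p below 0.05, against 1.87% of all transcripts and 4.4% of those with a symbol on that side. The 27 transcripts had 24 distinct probe sequences, were read in the same 10 horses and are not independent of each other. Averaged over the list, the level was 8.13, 7.09, 7.93, 7.91, 9.91 and 8.39 in MEA horses 1, 3, 4, 6, 7 and 10 of the higher class, and 6.01, 6.84, 7.97 and 7.71 in MEA horses 2, 5, 8 and 9 of the lower class. MEA horses 3, 4 and 6 of the higher class lay within the range of the lower class. CTRL horses ran from 8.63 to 10.33, above all MEA-affected horses except MEA horse 7.

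The number of ciliated transcripts with an unadjusted p below 0.05 depended on single horses and on the processing. It was 16 without MEA horse 3, 15 without MEA horse 8, 6 without MEA horse 10, 4 without MEA horse 1 or 7, 3 without MEA horse 5 and 1 without MEA horse 2. It was 1 with the normexp background correction, 2 with all 25 arrays in a single fit, 3 by the exact rank sum test and 1 without both horses nearest to the limit. The median difference stayed between 0.72 and 1.35, with all 27 above 0, in each of these. It was 2.20, 1.05 and 0.74 on slides 1, 2 and 4. With the percentage of epithelial cells in the smears as a covariate the median was 1.09, and with sex as a covariate 1.24. FOXJ1, the master regulator of motile cilia and chosen for that role after its values were seen, had 8.90 ± 0.96 (SD, n = 6) in the higher and 8.06 ± 0.59 (SD, n = 4) in the lower class, a difference of 0.84 ± 0.49 (SE) with an interval from -0.22 to 1.898. WDR16, a protein of the ciliary axoneme, differed by 1.68 ± 0.84 (SE), and by 0.71 without MEA horse 2, which had the lowest level of 3.76.

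Of the other epithelial transcripts 17 of 20 differences were above 0, against 51.3% of all transcripts, with a median of 0.57. At an unadjusted p below 0.05, 1 of 20 was higher, against 4.4% of the transcripts with a symbol. That transcript was DSP, desmoplakin of desmosomes, at 1.24 ± 0.56 (SE) for ENSECAT00000002342 and at 0.65 without MEA horse 5. Its other transcripts, ENSECAT00000029042 and ENSECAT00000015753, differed by 0.79 ± 0.49 (SE) and 0.61 ± 0.51 (SE). The membrane mucin MUC4 differed by 1.57 ± 0.72 (SE), and by 0.76 without MEA horse 5. EPCAM, an adhesion protein of epithelial cells in general and chosen for that role after its values were seen, differed by 0.78 ± 0.53 (SE). The gel-forming mucin MUC5AC had a difference of -0.89 ± 1.33 (SE) that turned to 0.81 without MEA horse 2, whose level was 9.92. The median of the list was 0.28 without MEA horse 5. The 3 tested transcripts of fibroblasts and vessels had a median of 0.71, with 2 above and 1 below 0. The differences were 0.80 ± 0.58 (SE) for the matrix protein TNXB, 0.71 ± 0.60 (SE) for the endothelial VWF and -0.21 for ROBO4.

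**Figure D3:**
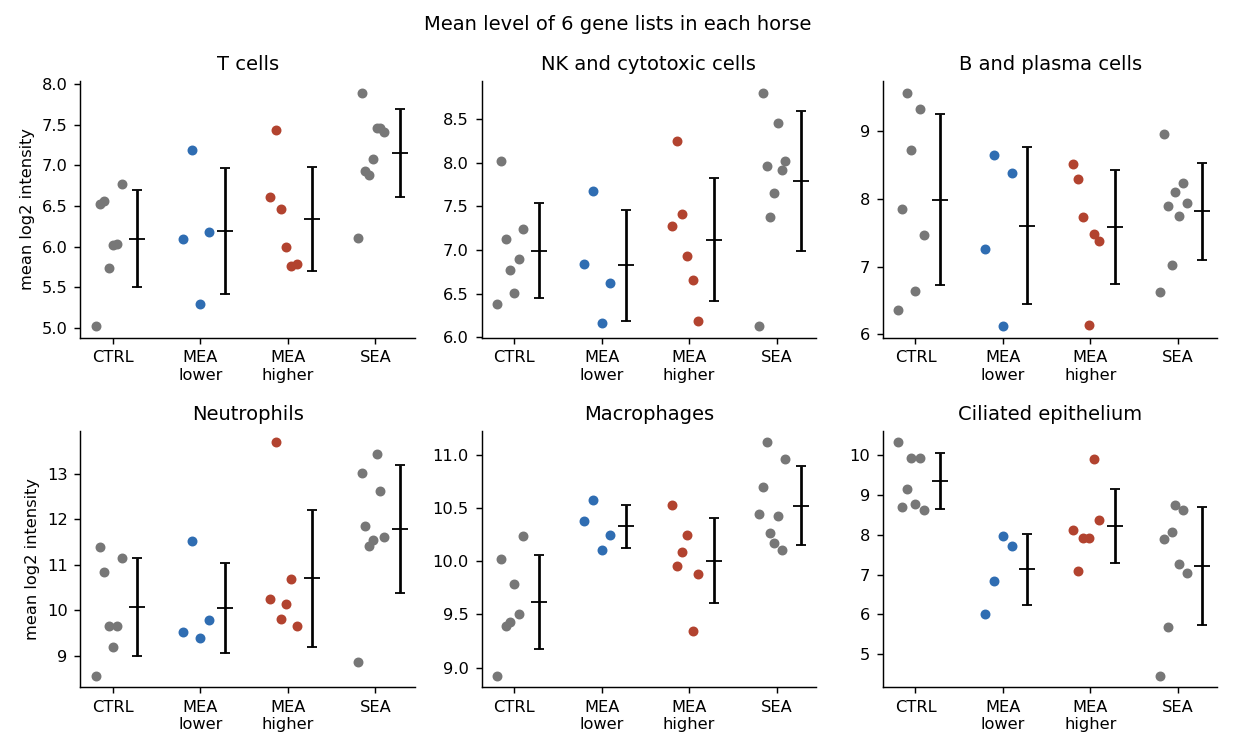
Mean log2 intensity of the tested transcripts of 6 lists (y axis) in each horse (points) of CTRL (n = 7), MEA with lower (n = 4) and higher lymphocytes (n = 6) and SEA (n = 8), with the mean ± SD as bars. T cell levels overlap between the MEA classes, 1 horse of the higher class stands apart for neutrophils at 13.69, and ciliated cell levels lie between 6.01 and 9.91 in MEA. The y axes do not start at 0.

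Of 12 tested macrophage transcripts, 8 were lower in the class with more lymphocytes and 2 of them, TREM2 and MPEG1, had an unadjusted p below 0.05, against 1.26% of all transcripts on that side. The median was -0.21. CD68, a lysosomal protein of macrophages chosen for that role after its values were seen, had 14.82 ± 0.57 (SD, n = 6) in the higher and 15.46 ± 0.32 (SD, n = 4) in the lower class, a difference of -0.63 ± 0.33 (SE). The secreted phosphoprotein SPP1 differed by 0.77 ± 1.23 (SE) and turned to -0.23 without MEA horse 8. The protease CTSL1 differed by 0.69 ± 0.77 (SE), with 0.01 left without MEA horse 8. Averaged over the list, macrophage levels ran from 9.34 to 10.53 in the higher and from 10.10 to 10.58 in the lower class, and the part of macrophage number in the levels of TREM2 and MPEG1 was not tested. The 12 dendritic cell transcripts, with 11 distinct probe sequences, had a median of -0.04, with 0.60 ± 0.46 (SE) and 0.55 ± 0.39 (SE) for the ITGAX transcripts ENSECAT00000026030 and ENSECAT00000026050, whose probes have the same sequence, and -1.27 ± 0.84 (SE) for LAMP3, of mature dendritic cells.

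Neutrophil transcripts had a median difference of 0.55, with 9 of 11 above 0, against 51.3% of all transcripts. Of these 11, read by 10 distinct probe sequences, 0 had an unadjusted p below 0.05. MEA horse 3 held a list level of 13.69, against 9.65 to 10.69 in the rest of its class, and without it the median was -0.01. That level was above the highest SEA-affected horse, at 13.43. In the smear, however, the neutrophil share of MEA horse 3 lay within the range of the other MEA-affected horses and far below that of SEA. Its lymphocyte class came from the same cytology, and the reason for the discrepancy was not tested. FCAR, the IgA receptor of myeloid cells, differed by 1.61 ± 0.86 (SE) and by 0.91 without that horse, and CSF3R, the receptor of granulocyte colony-stimulating factor, by 1.47 ± 1.16 (SE) and by 0.55. The list of inflammatory mediators, 19 transcripts with 18 distinct probe sequences, had a median of 0.40, or 0.10 without MEA horse 3. IL1B, interleukin-1 beta, by ENSECAT00000000066, was its single transcript with an unadjusted limma p below 0.05, at 0.0280. That is 1 of 19, against 4.4% of the transcripts with a symbol on that side. The other tested IL1B transcript, ENSECAT00000000217, did not pass. The level of ENSECAT00000000066 was 13.66 ± 1.26 (SD, n = 6) against 12.21 ± 0.47 (SD, n = 4). Its difference was 1.45 ± 0.58 (SE), and 1.02 without MEA horse 3. On slide 2 the difference of this IL1B transcript was -0.48, against 0.63 and 2.38 on slides 1 and 4. The cytokine OSM differed by 1.40 ± 0.93 (SE), and by 0.69 without MEA horse 3.

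Smaller lists gave the following values. Interferon response genes included TRIM21, at 0.51 ± 0.50 (SE) and at 0.11 without MEA horse 3, CIITA, the master regulator of class II genes, at 0.33 ± 0.54 (SE), and IFI44L, at -0.78 ± 0.59 (SE). Antigen presentation had 4 of 5 transcripts above 0, with 0.60 ± 0.45 (SE) for the costimulatory ligand ICOSLG, or 0.29 without MEA horse 3, and 0.42 ± 0.43 (SE) for the class II invariant chain CD74. Cell cycle had 5 of 6 above 0 and a median of 0.35, with 1.24 ± 0.56 (SE) for the transcription factor MYB (limma, unadjusted p = 0.0461) and 0.95 ± 0.47 (SE) for the spindle protein SPAG5. MYB was the 1 of 6 at an unadjusted p below 0.05, against 4.4% of the transcripts with a symbol on that side. Over all transcripts 51.3% were above 0. Of the mast cell and eosinophil list only PRG3, a granule protein of eosinophils, was tested, with a difference of -0.93 ± 0.58 (SE). Among the MEA smears, eosinophils were seen only in the higher class. Of the erythrocyte list 0 genes are named among these probes.

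The second comparison related each transcript to the percentage of lymphocytes as a number. No slope passed an adjusted limma p below 0.1 (0 of 4930, or 0%), and the smallest adjusted p was 0.9997. At an unadjusted p below 0.05, 29 transcripts (0.588%) had a slope above 0 and 44 (0.892%) a slope below 0. Of the transcripts at an unadjusted p below 0.05 in the class comparison, 14 that were higher and 28 that were lower were also at that level for the slope, which uses the same horses and the same counts. In data simulated in the same way 28% of slopes of 0.5 and 86% of slopes of 1 per percentage point were called, with 9 unchanged transcripts. The same limit applies to these shares.

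TREM2, NPY and MPEG1 had the smallest p among slopes below 0 of transcripts with a symbol. The slope of TREM2 was -0.70 ± 0.16 (SE) per percentage point (limma, unadjusted p = 0.00107). The 2 horses with the fewest lymphocytes, MEA horses 8 and 9, had 9.35 and 9.22 for TREM2, and the horse with the most, MEA horse 4, had 7.85. The slope of NPY was -0.76 ± 0.22 (SE) per point and that of MPEG1 -1.05 ± 0.33 (SE) per point. Among slopes above 0 of transcripts with a symbol, the smallest p belonged to EIF2C4, an Argonaute protein of microRNA silencing, at 0.50 ± 0.19 (SE) per point, RHPN2, at 0.40 ± 0.17 (SE), and PIWIL4, a Piwi protein, at 0.90 ± 0.37 (SE). None of these 6 is a lymphocyte gene. The T cell list had a median slope of 0.08, that of NK and cytotoxic cells 0.20 and that of B and plasma cells 0.01 per point, with 0 of 50 lymphocyte transcripts called.

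**Figure D4:**
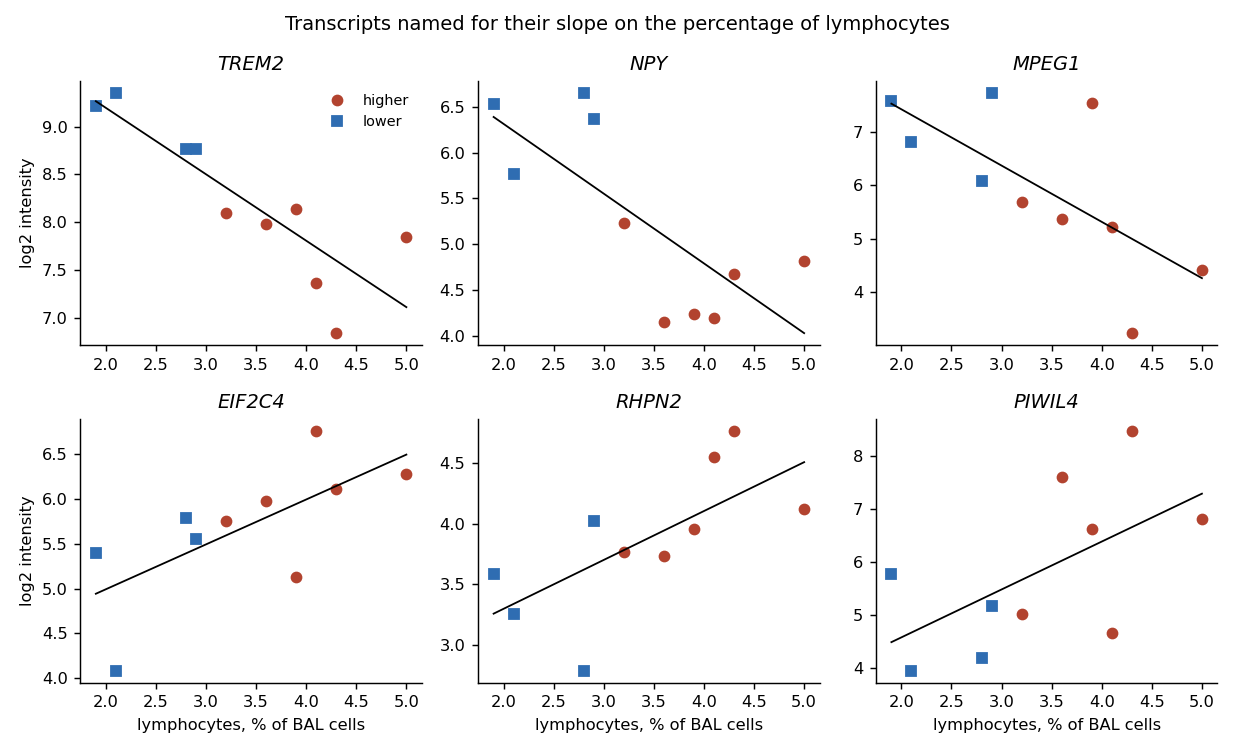
Log2 intensity (y axis) against the percentage of lymphocytes among BAL cells (x axis) for the 6 transcripts named for their slope, with red circles for the 6 horses of the higher and blue squares for the 4 of the lower class; the line is the fitted slope. The slopes of TREM2, NPY and MPEG1 are -0.70, -0.76 and -1.05 per percentage point and those of EIF2C4, RHPN2 and PIWIL4 are above 0, and none passed the adjusted threshold.

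Over all tested transcripts the lymphocyte classes were not apart on either of the first 2 principal components of the 10 MEA arrays. The first component held 31.0% of the variance and averaged 1.84 ± 36.3 (SD, n = 6) in the higher and -2.76 ± 17.8 (SD, n = 4) in the lower class (two-sided exact permutation test over 210 splits, p = 0.886). The second held 22.8%, with -6.93 ± 25.5 (SD, n = 6) and 10.39 ± 23.1 (SD, n = 4) (two-sided exact permutation test, p = 0.310). MEA horse 3 lay at 74.48 on the first component and MEA horse 7 at -51.63 on the second. Horses of the same class correlated with a median r of 0.928 across transcripts over 21 pairs, and horses of different classes with a median of 0.928 over 24 pairs.

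**Figure D5:**
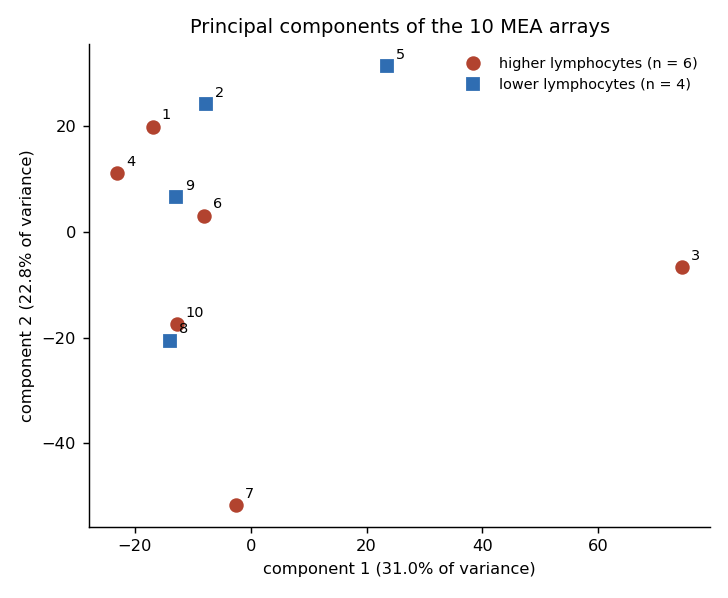
Scores of the 10 MEA-affected horses, numbered as in the text, on the first 2 principal components (31.0% and 22.8% of the variance), with the higher class in red circles and the lower class in blue squares. The classes are mixed, MEA horse 3 stands at 74.48 on the first component and MEA horse 7 at -51.63 on the second.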

How the data were processed

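BAL cell RNA of 25 horses was hybridized to 1 one-color array each, which carried 7238 equine Ensembl transcripts in 2 spots. For every spot the authors deposited the intensity that the scanner software had corrected for background and spatial trend, and, in a second file, intensities after their own cyclic loess normalization (R 2.11.1 per the submitters' processing notes). For the values given here the corrected intensities of all arrays were put on the log2 scale and brought together by cyclic loess in limma 3.58.1 under R 4.3.3 (span 0.7, 3 iterations). The mean of both spots was taken, and a transcript that stayed under 4.5 on 19 or more arrays was dropped. The 10 MEA arrays were then fitted with lmFit and eBayes, once by lymphocyte class and once by the percentage of lymphocytes. Sex and cell percentages came from the cytology published with the arrays. Called means a Benjamini-Hochberg adjusted p below 0.1, and for classes a fold of at least 1.5. Principal component scores were compared by a two-sided exact permutation test. The fits were tested on simulated data.

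Each array was 1 horse, and 0 arrays were identical. The number of arrays limits the precision.

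Symbols came from pairs of identifier and symbol published with the study for 1864 transcripts, all of them listed there as changed in asthma, and 1 identifier with several symbols was left unnamed. The reference gene list used here matched 0 transcripts, and no genome positions are given. The classes, the gene lists and the named transcripts were chosen with earlier results of these data known. Named transcripts were the 8 with the smallest p in each direction among those with a symbol and a fold of at least 1.5, the 3 with the smallest p for slopes above and below 0, 2 in each direction by p from each of the 4 lymphocyte lists, and at most 2 in each direction from the other lists where the difference reached 0.3. Those chosen after their values were seen are marked as such. Alternatives were other normalizations, background corrections, filters and tests, covariates, and leaving out horses.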

Additional observations from a re-analysis of the deposited data

Results flagged for a closer look

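In 9 of 148 sets of values of named transcripts, 1 horse lay far from the rest of its class by Dixon's ratio, the gap to the nearest horse divided by the range of the class. Chance flags about 1 set in 20, or 7.4 of these. MEA horse 3 was the high one in the higher class for FCAR (ratio 0.788), CD27 (0.858), TRIM21 (0.733), SPP1 (0.665) and CCL20 (0.651). MEA horse 7 was the high one in the same class for VWF (0.648) and NEO1 (0.681) and the low one for BPIFB2 (0.7002). MEA horse 2 was the high one in the lower class for SLAMF1 (0.855). The differences of CD27, TRIM21 and FCAR without MEA horse 3 were -0.42, 0.11 and 0.91.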

How the results depend on the processing

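Of 32 alternatives for the class comparison, 30 called 0 transcripts, among them the rank sum test, which could call none at this size, and all 27 alternatives for the slope called 0. A stricter adjusted p or no minimum fold could not call any either, because the smallest adjusted limma p was 0.177. With array weights 2 transcripts were called, ENSECAT00000015657 (adjusted limma p = 0.007) and NPY (0.0219). With single horses left out the number called was 0 to 1, the 1 being ENSECAT00000015657 without MEA horse 8 (adjusted limma p = 0.0249). The cause was not tested. The permutation p of the first component ran from 0.341 to 0.988 and of the second from 0.095 to 0.786. Leaving out spots marked as non-uniform was chosen after seeing the data. Of 2365 recomputed differences of named transcripts 2331 kept their sign, and 34, of 14 transcripts whose 95% intervals included 0, did not. Alternatives that changed only the test, the filter or the threshold left the differences unaltered. Their signs could not turn, so that the first of these counts overstates how stable the differences were. Without the 2 horses nearest to 3% lymphocytes the difference was 0.037 for GZMB (ENSECAT00000021962), -0.416 for CCL17, -0.172 for CXCR6, 0.981 for MUC5AC and -0.162 for CIITA. With normexp it was -0.0033 for IGLV3-27 and -0.077 for CXCR6, with quantile normalization -0.025 for CD247, with array weights 0.083 for GZMB (ENSECAT00000021962) and with sex as a covariate 0.068 for MATK. With single horses left out the difference ran from -0.223 to 1.18 for ZBTB16, from -0.589 to 0.463 for MATK, from -0.302 to 0.090 for GZMB (ENSECAT00000021962), from -0.096 to 0.943 for IGLV3-27, from -1.67 to 0.124 for IGHG4 and from -0.083 to 1.86 for CCL17. It ran from -0.613 to 0.026 for CCL20, from -0.227 to 2.19 for SPP1, from -2.08 to 0.814 for MUC5AC, from -0.010 to 0.582 for CIITA, from -0.156 to 0.348 for KLRG1, from -0.253 to 0.387 for CD247 and from -0.417 to 0.777 for CD27. The differences of NPY, CXCL11, TREM2 and ADAMDEC1 kept their sign in every alternative, within -1.96 to -0.64, -2.69 to -1.50, -1.48 to -1.03 and 1.42 to 2.83. For NPY, CXCL11 and TREM2 leaving out horses could not change the sign, because their classes did not overlap. No paired analysis was possible because the replicate numbers are shared only between CTRL, MEA and SEA, which were not compared, and each MEA horse has a number of its own.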
